A study of Mus musculus with 2 samples.

Results

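Chemokine ligands are small secreted or membrane-bound proteins that direct the movement of leukocytes and other cells through G protein-coupled receptors, and they are grouped as CXC, CC, XC and CX3C by the spacing of their first cysteines. Inflammatory ligands such as Cxcl1, Cxcl2, Cxcl10 and Ccl2 are switched on by NF-kappaB or interferon signalling, whereas homeostatic ligands such as Cxcl12, Cxcl13, Ccl19 and Ccl21a are made by stromal and endothelial cells and position lymphocytes and dendritic cells. In glandular tissue the epithelium is a known source of Cxcl16, Cxcl17, Cx3cl1 and the neutrophil-attracting CXC ligands. The members described here were all genes whose symbol starts with Cxcl, Ccl, Xcl or Cx3cl followed by a number. The rule took 44 of the 32285 listed genes, which carry 38 symbols (12 CXC, 24 CC, 1 XC and 1 CX3C), because 5 symbols stand for more than 1 gene copy. Of these 44 genes, 33 had at least 1 UMI (unique molecular identifier, standing for 1 captured RNA molecule) and 27 had at least 50 UMIs over both libraries and are described by name.

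The study profiled dissociated prostate cells of wild-type male C57BL6 mice by droplet single-cell RNA sequencing, with 1 library of ventral prostate lobes and another of the proximal, periurethral tissue next to the urethra. The age of the mice and the number pooled are not given in the sources used here, and neither group carries a transgene or treatment in its labels. The ventral library used version 2 and the proximal library version 3 of the 3′ kit, so a regional difference and a kit difference cannot be told apart, and with 1 library per group no difference has a replicate check and no test was made. Kept cells numbered 1988 ventral (median 25759 UMIs) and 3705 proximal (median 15260 UMIs). The libraries shared 0 barcodes. Cells captured in pairs were probably not removed, because the caller marked too few. Ranges in brackets are exact 95% intervals, which hold only the error of counting.

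Clusters were built without the ligands and their receptors and named from marker genes. The ventral library held 1726 distal luminal-like, 82 proximal luminal-like and 141 basal-like epithelial cells, 28 macrophage-like cells and 11 T or NK cell-like cells. By cluster it held 0 stromal-like and 0 endothelial-like cells, but 6 cells of the basal-like cluster held 3 or more fibroblast markers. The proximal library held 692 distal luminal-like, 820 proximal luminal-like, 930 basal-like and 26 seminal vesicle-like epithelial cells, 515 fibroblast-like, 6 smooth muscle-like, 61 endothelial-like, 60 macrophage-like, 20 dendritic cell-like and 26 T or NK cell-like cells. A further 549 proximal cells in 2 clusters stayed unnamed: both held all 8 proximal luminal markers, but haemoglobin genes led one, and Clca1, Areg and the urothelial gene Upk3a were among the genes that led the other.

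The ligand RNA was spread unevenly over these cells. Levels are given as CPM, the UMIs of a gene scaled to a total of 1000000 UMIs over the cells of a class. Summed over the members, the level was 166 CPM (162 to 170) in ventral cells and 608 CPM (603 to 613) in proximal cells. Immune-like cells were 1.96% of ventral cells and held 0.322% of its UMIs, but 23.2% (22.3 to 24.2%) of its ligand UMIs. In the proximal library they were 2.86% of cells and held 13.1% (12.8 to 13.3%) of the ligand UMIs. Epithelial cells held 76.8% of ventral and 49.9% of proximal ligand UMIs. Proximal fibroblast-like and smooth muscle-like cells held 19.3%, endothelial-like cells 3.71% and the unnamed clusters 14.0%. The epithelial share of the proximal library ran from 43.9% to 69.5% over the processing alternatives. The ventral immune share was 13.8% with no minimum number of cells for the genes used in clustering. The proximal endothelial share was 1.55% with each cell named by its own markers.

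Within the epithelium the secretory cells of the gland carried the least ligand RNA per UMI. Summed over the members, distal luminal-like cells stood at 96.5 CPM in the ventral and 127 CPM in the proximal library. Proximal luminal-like cells stood at 831 and 518 CPM, and basal-like cells at 1055 and 925 CPM. Fibroblast-like cells reached 2025 CPM, endothelial-like cells 2625 CPM, dendritic cell-like cells 2981 CPM and macrophage-like cells 10063 CPM in the ventral and 6771 CPM in the proximal library. T or NK cell-like cells reached 15585 CPM over the 11 ventral and 9685 CPM over the 26 proximal cells. The order of the classes present in both libraries was the same in each: distal luminal-like, proximal luminal-like, basal-like, macrophage-like, and T or NK cell-like, from low to high, with no overlap of neighbouring intervals.

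**Figure D1:**
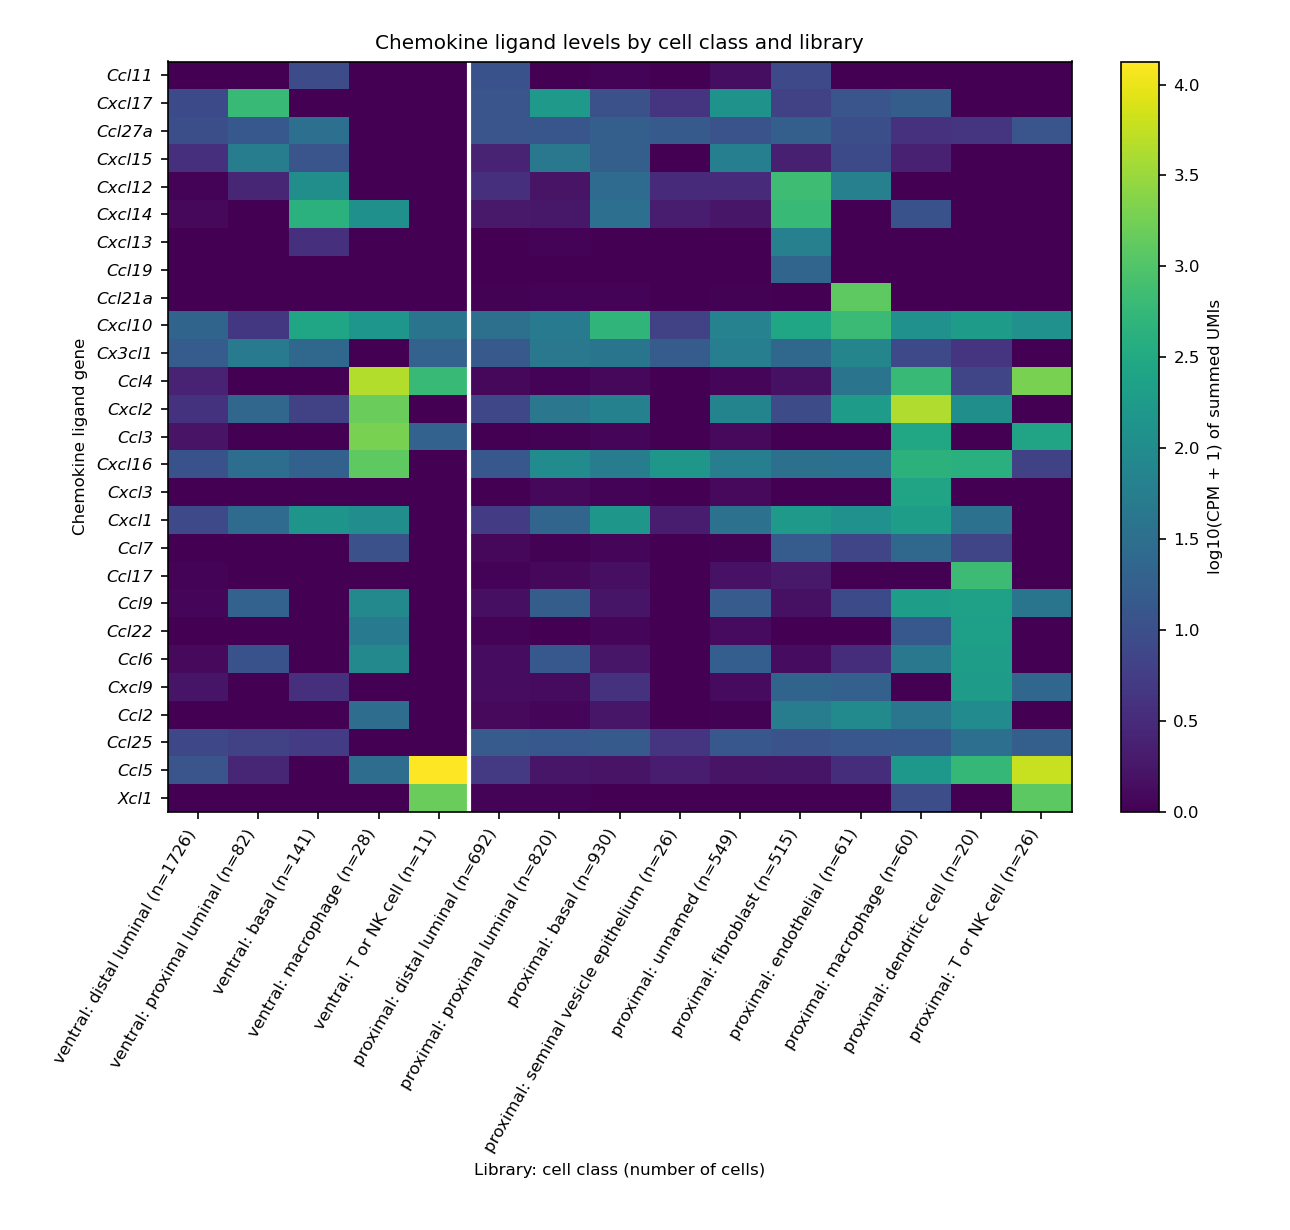
Heat map of the 27 ligands with at least 50 UMIs (rows, ordered by the class where they were highest) in each class of the ventral (left of the white line) and proximal library (right); colour is log10(CPM + 1) of UMIs summed over the class, and the number of cells stands beside each class. Cxcl10, Cxcl1, Cxcl16 and Cx3cl1 fill many columns, whereas Ccl19, Ccl21a, Ccl17 and Xcl1 are bright in 1 column or in the same class of both libraries.

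A member was assigned to a compartment where its CPM plus 10 was at least 2-fold above that of the next compartment. In the proximal library 12 of 27 members were assigned to the immune compartment (Cxcl2, Cxcl16, Ccl5, Ccl4, Ccl9, Ccl6, Ccl3, Xcl1, Cxcl9, Ccl17, Cxcl3 and Ccl22), against 4.88% of all 15916 genes tested. The stroma took 4 members (Cxcl12, Cxcl14, Cxcl13 and Ccl19), against 4.96% of genes, and the endothelium took 3 (Cxcl10, Cx3cl1 and Ccl21a), against 2.88%. The epithelium took 1 member, Cxcl17, against 2.53%. The other 7, Cxcl1, Cxcl15, Ccl27a, Ccl25, Ccl2, Ccl11 and Ccl7, were not set apart by 2-fold in any compartment. In the ventral library, which offered only epithelial and immune cells, 9 of 15 members were assigned to immune cells, against 18.2% of 11434 genes, and 1, again Cxcl17, to the epithelium, against 10.3%. Of the 9, Cxcl10, Cxcl1 and Cxcl14 rest on 17, 11 and 12 immune UMIs, and ventral basal-like cells stood above the immune level, at 267 against 108, 135 against 70.2 and 436 against 76.6 CPM. The ventral epithelial count of 1 was 6 with 1 CPM added in place of 10, and 0 without a second clustering of immune cells.

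Some of these calls rest on 1 cell. Leaving out the highest cell of each member in each class and compartment, an alternative added after seeing the data, ended the proximal endothelial calls of Cxcl10 (log2 ratio to the next compartment 0.60) and Cx3cl1 (0.91). It also ended the stromal call of Cxcl13 (0.96), the proximal immune call of Cxcl9 (0.60) and the ventral immune call of Cxcl10 (0.86). Cxcl15 in the proximal and Cx3cl1 in the ventral library became epithelial by that count, at 1.31 and 1.37.

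**Figure D2:**
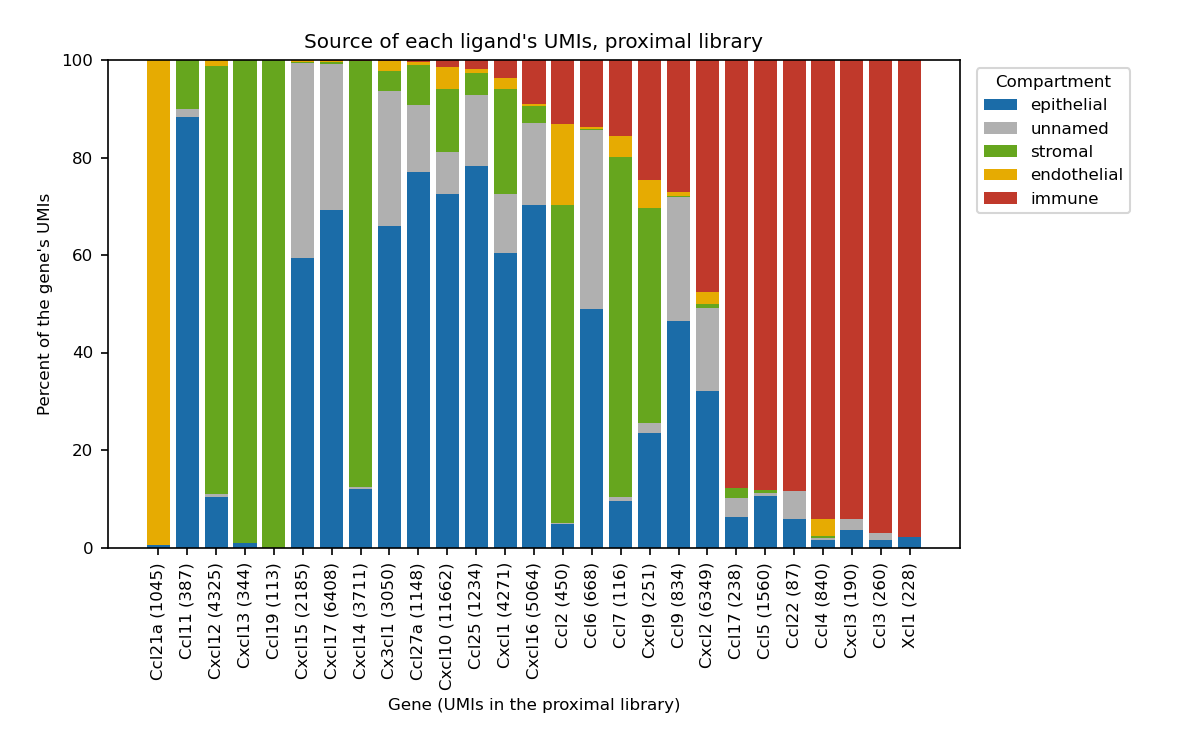
Stacked bars of the percent of each ligand's UMIs that came from each compartment of the proximal library, with the gene's UMIs in brackets; bars are ordered by the immune share. Ccl21a comes from endothelial-like cells at the left end, Cxcl12, Cxcl13 and Cxcl14 are mostly stromal, and Ccl3, Ccl4, Ccl5 and Xcl1 at the right end are mostly immune.

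The neutrophil-attracting ligands Cxcl1, Cxcl2 and Cxcl3, which signal through Cxcr2, and the interferon-inducible Cxcl10, which signals through Cxcr3, are all encoded on chromosome 5. Their promoters are shown because all hold a match to the NF-kappaB letters (GGG, any 3 bases, TTCC). For Cxcl10, levels across clusters are also described below next to those of NF-kappaB target genes. The sequences are from the RefSeq promoter table (GRCm38.p6), 5′ to 3′ on the gene's strand. Capitals mark matches on either strand to these letters or, in Cxcl10, also to the interferon-response letters (GAAA, any 2 bases, GAAA); the run GGGAATTTCCC holds a match on each strand that overlap. The first 3 windows lie 120 to 31 bases before the annotated start, the last one 230 to 61 bases before it.
Cxcl1, chr5:90891125-90891214, plus strand: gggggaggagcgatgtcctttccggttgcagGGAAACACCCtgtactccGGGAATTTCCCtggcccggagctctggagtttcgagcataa
Cxcl2, chr5:90903779-90903868, plus strand: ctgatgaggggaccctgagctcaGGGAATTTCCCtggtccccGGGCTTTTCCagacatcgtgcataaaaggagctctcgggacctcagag
Cxcl3, chr5:90785981-90786070, plus strand: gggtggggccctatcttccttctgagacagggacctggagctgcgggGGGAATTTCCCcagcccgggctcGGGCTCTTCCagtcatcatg
Cxcl10, chr5:92348950-92349119, minus strand: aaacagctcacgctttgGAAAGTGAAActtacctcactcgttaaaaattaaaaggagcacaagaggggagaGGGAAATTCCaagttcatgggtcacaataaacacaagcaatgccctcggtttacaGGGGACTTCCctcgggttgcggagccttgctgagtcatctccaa

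Of the 38 ligand symbols, 28 had a promoter in that table. In the 250 bases before the start, the NF-kappaB letters were found for 7 of these 28 (Ccl1, Ccl9, Ccl20, Cxcl1, Cxcl2, Cxcl3 and Cxcl10) and in 4.65% of all 32851 promoters. Counted per symbol with any of its promoters matching, as for the members, the share was 5.31% of 27025 symbols, and per promoter the members had 7 matches in 34. The interferon-response letters were found for 3 of 28 (Ccl19, Cxcl10 and Cxcl14) and in 2.98% of all promoters or 3.46% of symbols. A match describes the letters only.

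Cxcl10 was the ligand with the most UMIs over both libraries, 1154 ventral, fewer than the 1239 of Ccl5, and 11662 proximal, and basal-like, fibroblast-like and endothelial-like cells carried its highest levels. Its CPM in the proximal library was 652 (598 to 710) in endothelial-like, 492 (480 to 505) in basal-like and 278 (264 to 292) in fibroblast-like cells. It was 190 (145 to 245) in dendritic cell-like, 122 (76.5 to 185) in T or NK cell-like, 121 (96.4 to 149) in macrophage-like cells, 67.2 (63.1 to 71.5) in the unnamed clusters, 47.8 (45.0 to 50.6) in proximal luminal-like and 31.9 (30 to 33.8) in distal luminal-like cells. The 3 immune-like classes had overlapping intervals. A single cell of 61 held 41.2% of the endothelial-like UMIs, and without it the level was 397 CPM (354 to 443), below the basal-like level without its own highest cell, 481 CPM (469 to 493). In the same way a single cell held 70% of the dendritic cell-like and 59.1% of the T or NK cell-like UMIs, and the levels without it were 61.1 and 51.9 CPM. In the ventral library basal-like cells stood highest at 267 CPM (231 to 308), followed by macrophage-like cells at 145 (81.2 to 239), with 10 of 15 UMIs in 1 cell, T or NK cell-like cells at 37.6 (4.55 to 136), from 2 UMIs, and distal luminal-like cells at 20.2 (18.9 to 21.5). By UMI number, 72.5% of proximal and 98.5% of ventral Cxcl10 UMIs came from epithelial cells.

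Within a class the Cxcl10 level differed between clusters. Of the 3 proximal basal-like clusters, 1 led by Krt14 and Krt17 stood at 804 CPM and 1 led by Trp63 and Scpep1 at 568 CPM, against 24.6 CPM in the cluster led by Grp, Ivl and Aqp3. The NF-kappaB target list (15 genes, Nfkbia and Tnfaip3 among them) summed to 2625, 1924 and 1042 CPM in the same 3 clusters, and the list of dissociation-stress genes (13 genes, Fos and Jun among them) to 13971, 18899 and 8073 CPM. The interferon target list summed to 187, 287 and 96.9 CPM there. In fibroblast-like cells, Cxcl10 stood at 455 CPM in the cluster led by Wif1 and Ifitm1 and at 142 CPM in the cluster led by Ctla2a and Col3a1. These had NF-kappaB sums of 1871 and 1683 CPM, interferon sums of 746 and 495 CPM and stress sums of 19335 and 13618 CPM. Of the proximal macrophage-like clusters, that of 36 cells had 37.8 CPM of Cxcl10 and that of 24 cells 228 CPM. Their NF-kappaB sums were 3530 and 3183 CPM, their interferon sums 446 and 1238 CPM and their stress sums 3110 and 7952 CPM. Among the ventral distal luminal-like clusters with at least 20 cells, Cxcl10 was 76.2 CPM in the one led by Tacc2, Blnk, Ifrd1 and the stress gene Atf3 and ran from 0 to 22.0 CPM in the others. The NF-kappaB, interferon and stress sums of that cluster were 321, 98.1 and 5502 CPM. In the others they ran from 125 to 450, from 22.8 to 129 and from 1444 to 6653 CPM. The part of NF-kappaB or interferon signalling, of tissue dissociation or of the kit in these levels was not tested.

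**Figure D3:**
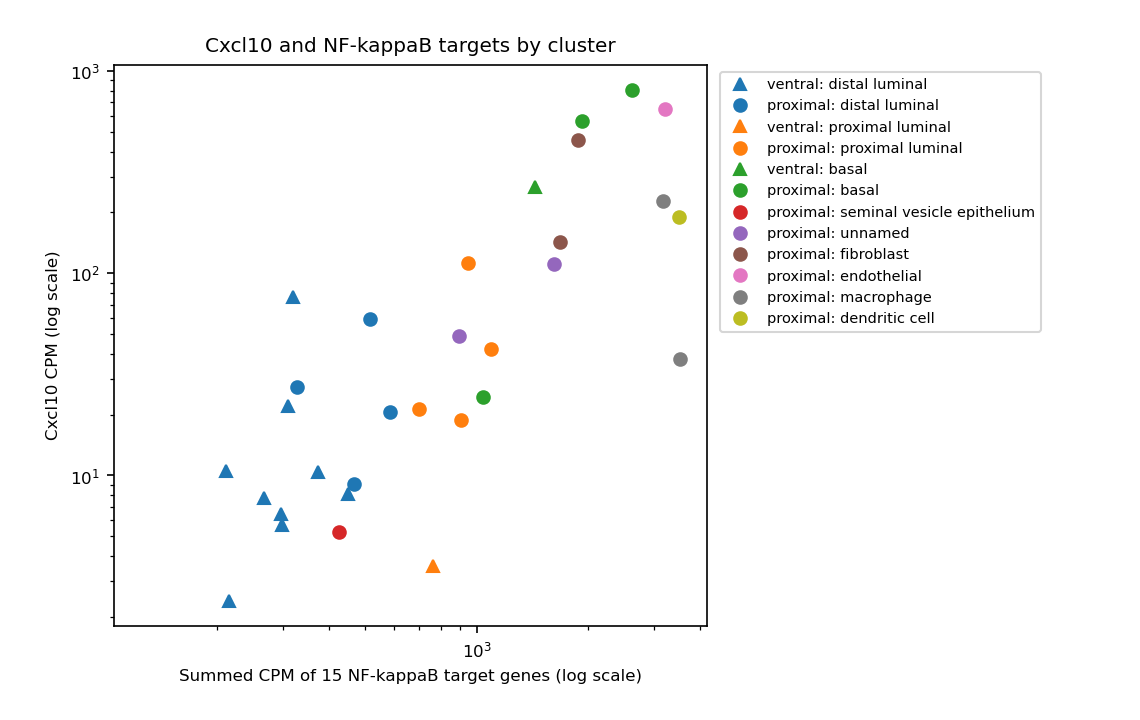
Cxcl10 CPM (log axis) against the summed CPM of 15 NF-kappaB target genes (log axis), with 1 point for each cluster of at least 20 cells, coloured by class, triangles for the ventral and circles for the proximal library; a ventral distal luminal-like cluster with 0 Cxcl10 UMIs cannot be drawn on a log axis. Basal-like, fibroblast-like and endothelial-like clusters lie at the upper right with Cxcl10 up to 804 CPM, except for a proximal basal-like cluster with 24.6 CPM at an NF-kappaB sum of 1042 CPM, while a macrophage-like cluster with an NF-kappaB sum of 3530 CPM has 37.8 CPM of Cxcl10.

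Cxcl9, the other Cxcr3 ligand measured, had only 251 proximal UMIs and a different order of classes. It was highest in dendritic cell-like cells at 184 CPM (140 to 238), or 100.1 CPM without the cell that held 48.3% of the UMIs, followed by 22.2 (6.05 to 56.8) in T or NK cell-like cells, from 4 UMIs in 1 cell, 20.4 (16.8 to 24.6) in fibroblast-like and 17.3 (9.47 to 29.1) in endothelial-like cells, where 12 of 14 UMIs lay in 1 cell. Basal-like cells, among the highest for Cxcl10, had 3.08 CPM (2.19 to 4.22), and macrophage-like cells had 0 UMIs. In fibroblast-like cells 8 of 515 cells held 77.5% of its 111 UMIs. In the ventral library 33 of 35 Cxcl9 UMIs lay in distal luminal-like cells, at 0.708 CPM.

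The neutrophil-attracting ligands split between macrophages and structural cells. Cxcl2 was highest in macrophage-like cells, where it reached 1547 CPM (1316 to 1806) among ventral and 4248 CPM (4097 to 4403) among proximal cells. Outside them it stood at 193 CPM (164 to 226) in endothelial-like, 114 (80.1 to 158) in dendritic cell-like, 72.7 (68.4 to 77.1) in unnamed and 64.4 (60 to 68.9) in basal-like proximal cells, and at 6.52 (5.69 to 7.44) in distal luminal-like cells. A single cell held 64.7% of the endothelial-like and 55.6% of the dendritic cell-like Cxcl2 UMIs, and without it the levels were 71.2 (53.6 to 92.7) and 53.8 CPM (30.8 to 87.4), with intervals that overlap the basal-like one. Without the cell that held 125 of 222 UMIs, the distal luminal-like level was 2.86 CPM. After thinning each cell to 1000 UMIs, 66.1% of proximal macrophage-like cells and 0.437% of distal luminal-like cells had a Cxcl2 UMI. Without thinning, 46 of 60 and 84 of 692 cells had one, at median depths of 10553 and 48835 UMIs.

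Cxcl3 was nearly all macrophage-like: 179 of its 190 proximal UMIs lay there, at 254 CPM (218 to 294), and 8 of the 60 cells held 93.3% of them. The ventral library had 0 Cxcl3 UMIs, but its 28 macrophage-like cells held only 103452 of its 48592956 UMIs. Cxcl1, by contrast, was shared by structural cells and macrophages. In the proximal library its CPM was 206 (174 to 242) in macrophage-like, 168 (157 to 179) in fibroblast-like, 152 (145 to 159) in basal-like and 121 (98.5 to 148) in endothelial-like cells. Neighbours in that order had overlapping intervals. Ventral basal-like cells had a Cxcl1 level of 135 CPM (110 to 165) and ventral macrophage-like cells 106 (53.1 to 190). The basal-like clusters led by Trp63, by Krt14 and by Grp had 243, 227 and 15.7 CPM of Cxcl1, so the cluster led by Grp was lowest, as for Cxcl10.

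Cxcl15, a CXC ligand of mucosal epithelium, was highest in proximal luminal-like cells among the named classes. It had 53.7 CPM (41.0 to 69.2) there in ventral tissue and 43.3 (40.7 to 46.0) in proximal tissue, 58.5 (54.7 to 62.5) in the unnamed clusters and 17.1 (14.9 to 19.5) in proximal basal-like cells. Distal luminal-like cells had 2.77 and 1.56 CPM. The basal-like cluster led by Grp and Aqp3 had 33.9 CPM of Cxcl15 against 8.10 CPM in that led by Krt14, the reverse of the order seen for Cxcl10 and Cxcl1. Cxcl5, also neutrophil-attracting, had 14 UMIs in all, spread over 7 entries of class and library.

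**Figure D4:**
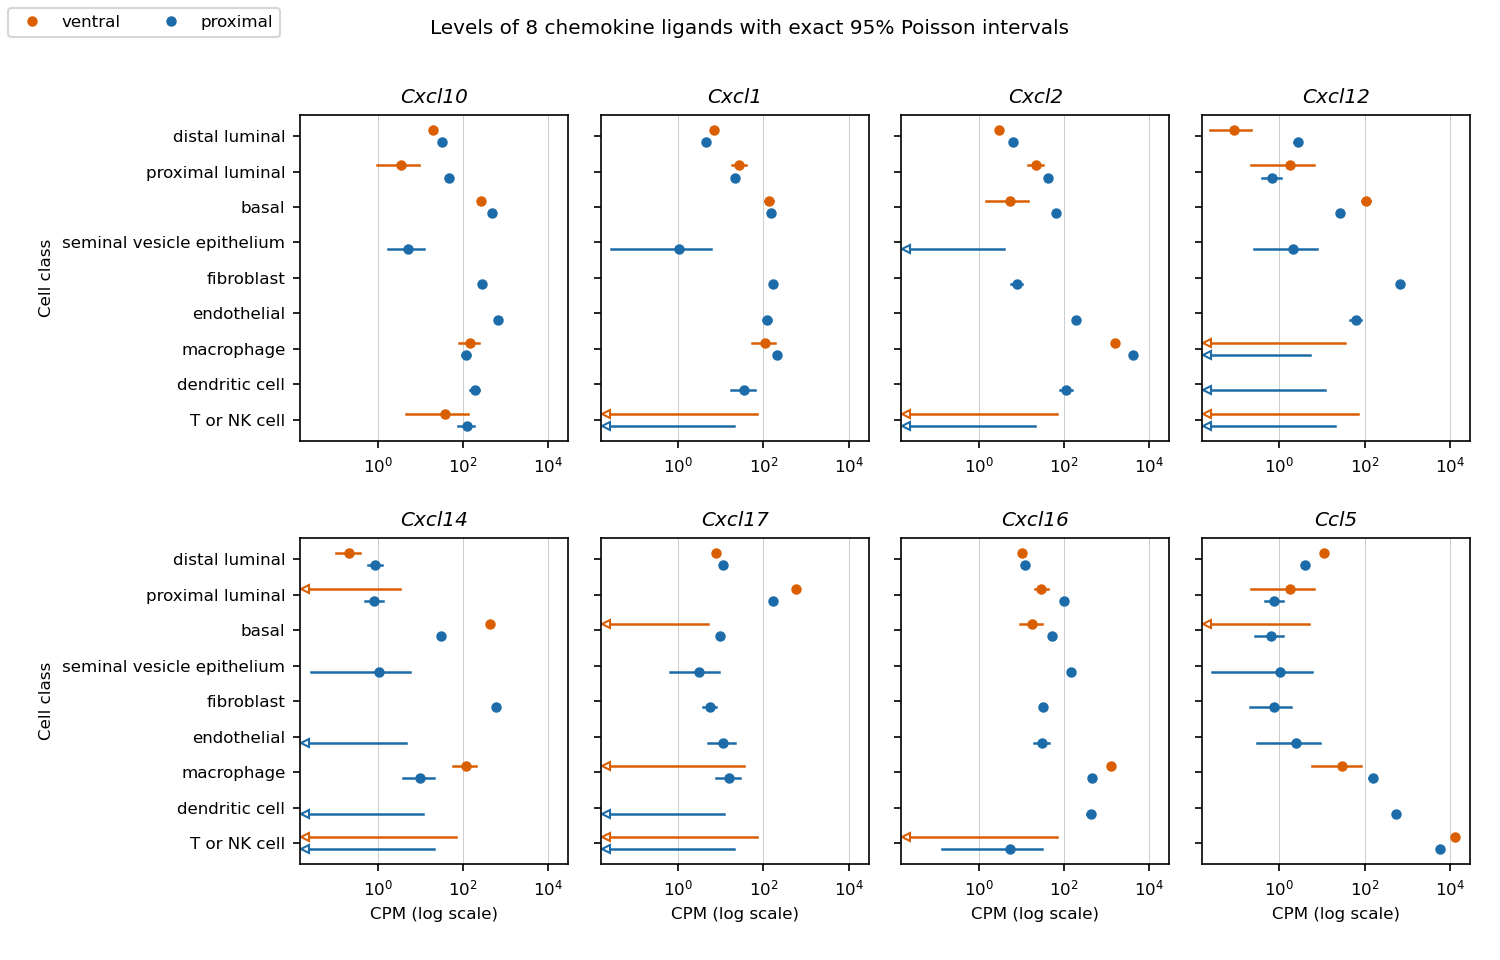
CPM (log axis) of 8 ligands by cell class in the ventral (orange) and proximal library (blue), with exact 95% Poisson intervals of the summed UMIs; an open arrowhead at the left edge marks 0 UMIs, with a line up to the upper bound, and classes with no point had no cells in that library. Cxcl12 and Cxcl14 are highest in fibroblast-like cells, Cxcl17 in proximal luminal-like cells, Cxcl2 in macrophage-like cells and Ccl5 in T or NK cell-like cells.

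In the proximal library the homeostatic ligands Cxcl12 and Cxcl14 were highest in fibroblast-like cells, whose clusters differed in them. Cxcl12, which retains leukocytes and progenitors through Cxcr4 and is cleared by Ackr3, stood at 699 CPM (677 to 721) in proximal fibroblast-like cells. Endothelial-like cells had 61.9 CPM (45.9 to 81.6), basal-like cells 26.6 (23.9 to 29.6), and all 106 immune-like cells 0 UMIs. Cxcl14, which is made in skin and mucosa, stood at 598 CPM (577 to 618) in fibroblast-like cells and 31.2 (28.2 to 34.4) in basal-like cells. After thinning, 32.4% of fibroblast-like cells had a Cxcl12 UMI and 32.2% a Cxcl14 UMI, against 0% for each in the 26 T or NK cell-like cells. The fibroblast-like cluster led by Ctla2a, Col3a1 and Dpt (265 cells) had 980 CPM of Cxcl12 and 175 CPM of Cxcl14. The cluster led by Wif1 and Ifitm1 (250 cells) had the opposite order, 331 CPM of Cxcl12 and 1150 CPM of Cxcl14.

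Cxcl13, which attracts B cells through Cxcr5, and Ccl19, a Ccr7 ligand, were low and stromal. Cxcl13 had 341 of its 344 proximal UMIs in fibroblast-like cells, but 1 cell held 289 of them, 84.0% of the library's total, and without it the level was 9.6 CPM and the stromal call was lost. Ccl19 had all of its 113 UMIs in fibroblast-like cells, at 20.8 CPM (17.1 to 25), spread over 63 cells with at most 8 UMIs in one. The ventral library, which has no fibroblast-like cluster, had 3 Cxcl13 and 0 Ccl19 UMIs.

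In the ventral library Cxcl12 and Cxcl14 were carried by basal-like cells, with 79 of 85 and 316 of 338 UMIs. Their levels there were 109 CPM (86.2 to 136) and 436 CPM (389 to 486). The fibroblast marker list summed to 5400 CPM in these cells, with all 7 genes present. Dcn was found in every one of the 141 cells, 135 of which held fewer than 3 fibroblast markers. In these 135 cells Krt5 stood at 826 CPM and Col1a2 at 0 UMIs, and Cxcl14 and Cxcl12 stood at 391 CPM (346 to 440) and 99.2 CPM (77.3 to 125). The 6 cells with 3 or more fibroblast markers had 0 UMIs of Krt5 and Krt15, 1209 CPM of Col1a2 and 2015 CPM (1440 to 2744) of Cxcl14. This split was chosen after the values had been seen.

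Ccl21a, the lymphatic endothelial Ccr7 ligand that guides dendritic cells into lymph vessels, lay almost wholly in a few endothelial-like cells. Of its 1045 proximal UMIs, 1039 lay in 5 of the 61 endothelial-like cells, with 360 in the highest; without that cell the class level of 1286 CPM was 853 CPM. Lymphatic markers (Lyve1, Prox1, Mmrn1, Flt4, Reln and Pdpn) summed to 6536 CPM in these 5 cells and to 191 CPM in the other 56. The log2 ratio of the endothelial level to the next compartment was 7.01, and it was -0.0099 when each cell was named by its own highest marker level instead of by cluster. Near-identical copies of Ccl21a, Ccl19 and Ccl27a are listed under the same or similar symbols with 0 UMIs, so the split of reads between copies is uncertain. The ventral library had 0 Ccl21a UMIs.

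Cxcl17, a ligand of mucosal epithelia, marked proximal luminal-like cells in both libraries. It stood at 592 CPM (548 to 639) in ventral and 165 CPM (160 to 170) in proximal library cells of this class, and at 129 CPM (123 to 135) in the unnamed clusters. Distal luminal-like cells had 7.6 and 11.4 CPM, and proximal basal-like cells 9.65 CPM. After thinning, 39.0% of ventral and 14.0% of proximal library cells of the class had a Cxcl17 UMI, against 0% of T or NK cell-like cells in either. The 4 proximal luminal-like clusters of the proximal library ran from 52.0 to 308 CPM of Cxcl17. The unnamed cluster led by Clca1, Areg and Ly6d had 316 CPM and the one led by haemoglobin genes 52.1 CPM.

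The membrane-bound ligands Cxcl16 and Cx3cl1, which are also shed as soluble chemokines, were broad. Cxcl16 was found in all but 1 of the 15 classes of at least 11 cells, the exception being ventral T or NK cell-like cells. It was highest in macrophage-like cells, at 1266 CPM (1059 to 1503) in the ventral and 452 (403 to 504) in the proximal library, and stood at 422 (354 to 500) in dendritic cell-like cells. Epithelial levels were lower, at 149 CPM (126 to 176) in seminal vesicle-like, 97.9 (93.9 to 102) in proximal luminal-like, 53.2 (49.3 to 57.4) in basal-like and 12.2 (11.1 to 13.5) in distal luminal-like cells of the proximal library. Epithelial cells still held 70.2% of the proximal Cxcl16 UMIs. Cx3cl1 was highest in endothelial-like cells at 74.3 CPM (56.7 to 95.6), with 56.3 (52.6 to 60.3) in the unnamed clusters, 44.2 (41.6 to 47.0) in proximal luminal-like, 39.8 (36.4 to 43.4) in basal-like and 24.1 (20.2 to 28.6) in fibroblast-like cells. It was low in macrophage-like cells, at 7.10 CPM (2.31 to 16.6). Of all proximal Cx3cl1 UMIs, no cell held more than 13 of 3050.

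Ccl5, Ccl3 and Ccl4, which draw T cells and monocytes, divided between T or NK cell-like and macrophage-like cells. Among T or NK cell-like cells, Ccl5 reached 13388 CPM (12423 to 14408) over the 11 of the ventral library and 6057 CPM (5703 to 6427) over the 26 of the proximal library. In the proximal library these were 2 clusters: the one led by Gzmb and Gzma had 10186 CPM and the one led by Ramp3 and Trbc2 had 1966 CPM. Xcl1, the ligand of the dendritic cell receptor Xcr1, was made by the same class, at 1521 CPM (1208 to 1890) in the ventral and 1204 (1049 to 1375) in the proximal library. A single cell held 40.8% of proximal Xcl1 UMIs, and the proximal level of the class without it was 727 CPM (605 to 867). The ventral log2 ratio of the immune to the epithelial level was -0.0031 with no minimum number of cells for variable genes, and the immune call of Xcl1 was then lost. After thinning, 61.5% of proximal T or NK cell-like cells had a Ccl5 UMI and 30.8% an Xcl1 UMI, against 0.146% and 0% of distal luminal-like cells.

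Ccl4 and Ccl3 were highest in macrophage-like cells of the ventral library, at 4427 CPM (4031 to 4852) and 1972 CPM (1711 to 2262). The proximal macrophage-like cells had 622 CPM (565 to 683) of Ccl4 and 291 CPM (253 to 334) of Ccl3. Proximal T or NK cell-like cells had 1947 CPM (1749 to 2162) of Ccl4, above the proximal macrophage-like level, and 261 CPM (192 to 347) of Ccl3, within its interval. Without the cell that held 53.2% of the T or NK cell-like Ccl3 UMIs that level was 128 CPM, against 201 CPM in macrophage-like cells without theirs. In dendritic cell-like cells 156 of 174 Ccl5 UMIs lay in 1 cell, and in proximal macrophage-like cells 55 of 109.

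Ccl5 also appeared in a few cells of the distal luminal-like class. Of its 521 ventral UMIs there, 462 lay in 9 of 1726 cells, with 315 in 1 cell. None of the 9 held a UMI of any of the 11 T or NK markers, and 38 of the other 1717 cells held one. In the ventral T or NK cell-like cells these markers summed to 7342 CPM. The median depth of the 9 cells was 21964 UMIs, against 27177 in the other distal luminal-like cells. In the proximal library 1 distal luminal-like cell held 124 of 139 Ccl5 UMIs, and it had a T or NK marker UMI, as did 129 of the other 691 cells. For Ccl4, 1 ventral distal luminal-like cell held 47 of 70 UMIs, and macrophage markers stood at 2226 CPM in it against 6.29 CPM in the others. The cause of these single cells was not tested.

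Ccl6 and Ccl9, ligands of Ccr1 known from myeloid cells, were also found in proximal luminal-like cells. Both were highest in dendritic cell-like and macrophage-like cells, with 232 CPM (182 to 291) and 207 CPM (175 to 244) of Ccl9 and 194 CPM (148 to 249) and 44.0 CPM (29.9 to 62.5) of Ccl6. In dendritic cell-like cells the highest cell held 54.8% of the Ccl9 and 73.8% of the Ccl6 UMIs, and the levels without it were 111 and 53.8 CPM. The macrophage-like levels without their highest cells were 182 and 38.1 CPM, so the order of both classes turned for Ccl9. Proximal luminal-like cells had 18.8 CPM (11.6 to 28.8) of Ccl9 in the ventral and 15.2 (13.7 to 16.8) in the proximal library, and 9.85 (4.92 to 17.6) and 12.8 (11.4 to 14.3) of Ccl6. Basal-like cells of the proximal library had 0.712 and 0.791 CPM, and distal luminal-like cells 0.499 and 0.382 CPM. Macrophage markers summed to 43.6 CPM in proximal luminal-like cells of the proximal library and to 13.7 CPM in distal luminal-like cells. Ccl6 lay in 189 of 820 and Ccl9 in 198 of 820 proximal luminal-like cells. By UMIs, 27.1% of proximal Ccl9 and 13.8% of Ccl6 was immune, 46.4% and 49% epithelial, and 25.4% and 36.7% from the unnamed clusters.

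Ccl2 and Ccl7, which call monocytes through Ccr2, came mostly from fibroblast-like cells by UMI number and were nearly absent from epithelium. Ccl2 stood at 95.2 CPM (64.3 to 136) in dendritic cell-like, 92.8 (73.0 to 116) in endothelial-like, 53.9 (47.9 to 60.5) in fibroblast-like and 41.2 (27.6 to 59.1) in macrophage-like cells. However, 28 of the 30 dendritic cell-like and 60 of the 75 endothelial-like UMIs lay in 1 cell each, and without it the levels were 6.73 and 19.5 CPM (10.9 to 32.1), against 45.2 (39.8 to 51.3) in fibroblast-like cells without their highest cell. In epithelial classes of the proximal library it was 0.791 CPM or less. Fibroblast-like and smooth muscle-like cells together held 65.1% of the 450 proximal Ccl2 UMIs. Ccl7 stood at 22.7 CPM (13 to 36.9) in macrophage-like and 14.9 (11.8 to 18.5) in fibroblast-like cells, with overlapping intervals. Of the 16 macrophage-like Ccl7 UMIs, 11 lay in 1 cell, and without the highest cell of each class the levels were 7.22 and 11.3 CPM, in the opposite order. The ventral library had 4 Ccl2 UMIs and 1 Ccl7 UMI.

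Ccl17 and Ccl22, the Ccr4 ligands of mature dendritic cells, were dendritic cell-like products in the proximal library, at 664 CPM (577 to 760) and 216 CPM (168 to 274). Of the 209 Ccl17 UMIs in the class, 207 lay in 5 of the 20 cells, and 1 cell held 47.5% of the library's total; without it the class level was 331 CPM. The ventral library, which had no dendritic cell-like cluster, had 5 UMIs of each.

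Ccl11, the eosinophil-attracting ligand of Ccr3, was found in distal luminal-like and fibroblast-like cells. Of 387 proximal UMIs, 88.4% lay in epithelial cells, all but 1 of them in distal luminal-like cells. The level of this class was 10.0 CPM (8.98 to 11.1), and that of fibroblast-like cells was 7.18 (5.10 to 9.81). It lay in 2 of the distal luminal-like clusters, with 36.6 CPM in the cluster led by Prr9 and Pate14 and 22.8 CPM in that led by Ren1 and Tgm4. Of the 692 cells, 14 held 86.2% of the class's Ccl11 UMIs, and distal luminal markers, found in all 692, summed to 56564 CPM in them and to 241416 CPM in the rest. The rest include the clusters led by the listed markers Sbp and Spink1 and by Msmb. The 14 cells were not compared with other cells of their own clusters. The 1726 ventral distal luminal-like cells had 0 Ccl11 UMIs.

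Ccl25 and Ccl27a, known from thymus or gut and from skin, were low. Over the 6 named proximal classes of at least 50 cells, Ccl25 ran from 10.3 to 14.5 CPM, a 1.41-fold range, and Ccl27a from 2.84 to 17.1 CPM, a 6.01-fold range. Ventral basal-like cells had 31.7 CPM (20.1 to 47.6) of Ccl27a, and dendritic cell-like cells 31.7 CPM (15.2 to 58.4) of Ccl25, from 10 UMIs. The other ligands with UMIs in all 6 classes ranged at least 10.5-fold over them. The 6 further members below 50 UMIs had 14 to 27 UMIs each. Ccl12 had 21 of 22 proximal UMIs in macrophage-like cells, 20 of them in 1 cell, and Ccl8 had its 14 ventral UMIs in 1 macrophage-like cell. Ccl20 had 15 of 18 UMIs in proximal luminal-like cells, all in 1 cell, and Ccl24 had 10 of 14 in dendritic cell-like cells. Ccl28 had 18 UMIs over 6 entries of class and library. The 11 members at 0 UMIs in both libraries were Ccl1, Ccl26, Ccl27b, both copies each of Ccl21b and Ccl21c, and further copies of Ccl27a (2), Ccl19 (1) and Ccl21a (1).

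Both libraries could be compared in 4 classes, always as 1 library against 1 and with the kit version differing. Of 13 members tested in distal luminal-like cells, 1 passed 2-fold with the higher level in proximal tissue on the CPM plus 10 scale, against 8.44% of 13311 genes, and 0 were lower, against 0.383%. That member was Ccl11, at least 156-fold higher against the limit that 0 ventral UMIs allow (3 UMIs over the class, with no error for the proximal count), and without its highest cell it no longer passed 2-fold on the CPM plus 10 scale. Its proximal UMIs in the class lay in clusters led by Prr9 and Pate14 and by Ren1 and Tgm4, which led no ventral cluster. A difference in the kind of distal luminal-like cell and a library difference therefore cannot be told apart. Cxcl12 was 31.1-fold higher (11.8 to 117) as a plain ratio, from 0.0858 to 2.67 CPM, too low to pass on the CPM plus 10 scale. The proximal library as a whole had 46.1 CPM of Cxcl12. The part of RNA from other cells in the 2.67 CPM was not tested. Cxcl2 and Ccl25 were 2.17-fold (1.75 to 2.70) and 2.12-fold (1.84 to 2.44) higher as plain ratios. Without the highest cell, their log2 ratios on the CPM plus 10 scale were 0.04 and 0.54. In the other direction, plain ratios put Ccl4 6.39-fold (3.07 to 15.4) and Ccl5 2.74-fold lower (2.27 to 3.33) in the proximal library. Single cells held 47 of 70 ventral Ccl4 UMIs and, for Ccl5, 315 of 521 ventral and 124 of 139 proximal UMIs. Without the highest cell on each side, Ccl5 stood at 4.42 CPM in ventral and 0.441 CPM in proximal library cells, and Ccl4 at 0.494 and 0.206 CPM. The median log2 ratio of the 13 members was 0.18, against 0.29 over all genes.

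In proximal luminal-like cells 2 of 11 members were higher in the proximal library, against 10.0% of 11879 genes. Cxcl10 went from 3.58 to 47.8 CPM, a 13.3-fold difference (5.19 to 49) that rests on 4 ventral UMIs. Cxcl16 went from 29.6 to 97.9 CPM, 3.31-fold (2.35 to 4.82). Cxcl17 was the 1 member that was lower, against 6.26% of genes, with 592 CPM in the ventral and 165 CPM in the proximal library, 3.59-fold (3.30 to 3.90). Even the highest of the 4 proximal library clusters of the class, at 308 CPM, lay below the ventral Cxcl17 level. Without the highest cell of each member, Cxcl2 and Cxcl1 passed 2-fold as well (log2 ratios 2.31 and 1.18), because all 25 ventral Cxcl2 UMIs and 27 of 30 Cxcl1 UMIs of the class lay in 1 cell. The median log2 ratio of the 11 members was -0.06, against 0.05 over all genes.

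In basal-like cells Cxcl2 was 11.7-fold higher (4.54 to 42.9, from 4 ventral UMIs) and Cxcl16 2.97-fold higher (1.72 to 5.61) in the proximal library, 2 of 11 members against 17.3% of 10662 genes. The homeostatic Cxcl14 and Cxcl12 were lower, 2 of 11 against 7.99%. Cxcl14 stood at 436 CPM in ventral and 31.2 CPM in proximal library cells, a 14.0-fold difference (12.0 to 16.3), and Cxcl12 at 109 and 26.6 CPM, 4.09-fold (3.16 to 5.24). Without the cells that held 3 or more fibroblast markers, Cxcl14 stood at 391 and 29.9 CPM and Cxcl12 at 99.2 and 26.5 CPM. The 3 proximal basal-like clusters ran from 2.83 to 67.2 CPM of Cxcl14, all below the ventral level. Cxcl10 was 1.84-fold higher (1.60 to 2.14) and Cxcl1 1.13-fold (0.919 to 1.39), neither past 2-fold. The median log2 ratio of the 11 members was 0.57, against 0.16 over all genes.

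In macrophage-like cells 4 of 9 members were higher in the proximal library, against 31.0% of 2355 genes, namely Cxcl2 (2.75-fold, 2.34 to 3.24), Ccl5 (5.34-fold, 1.78 to 26.3, from 3 ventral UMIs), Ccl9 (2.38-fold, 1.22 to 5.32) and Cxcl3 (at least 8.77-fold against the same limit of 3 ventral UMIs). Without the highest cell of each member Cxcl1 passed as well, at a log2 ratio of 1.11. Lower were 3 of 9, against 5.94% of genes. These were Ccl4, 7.12-fold (6.23 to 8.13), Ccl3, 6.77-fold (5.55 to 8.26), and Cxcl16, 2.80-fold (2.27 to 3.45). The 28 ventral cells had a median of 3715 UMIs and the 60 proximal cells 10553. Of the ventral clusters, the one of 13 cells had 2918 CPM of Cxcl2 and that of 15 cells 481 CPM, and the stress list summed to 4421 and 12730 CPM in them. The part of these clusters in the library difference was not tested.

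**Figure D5:**
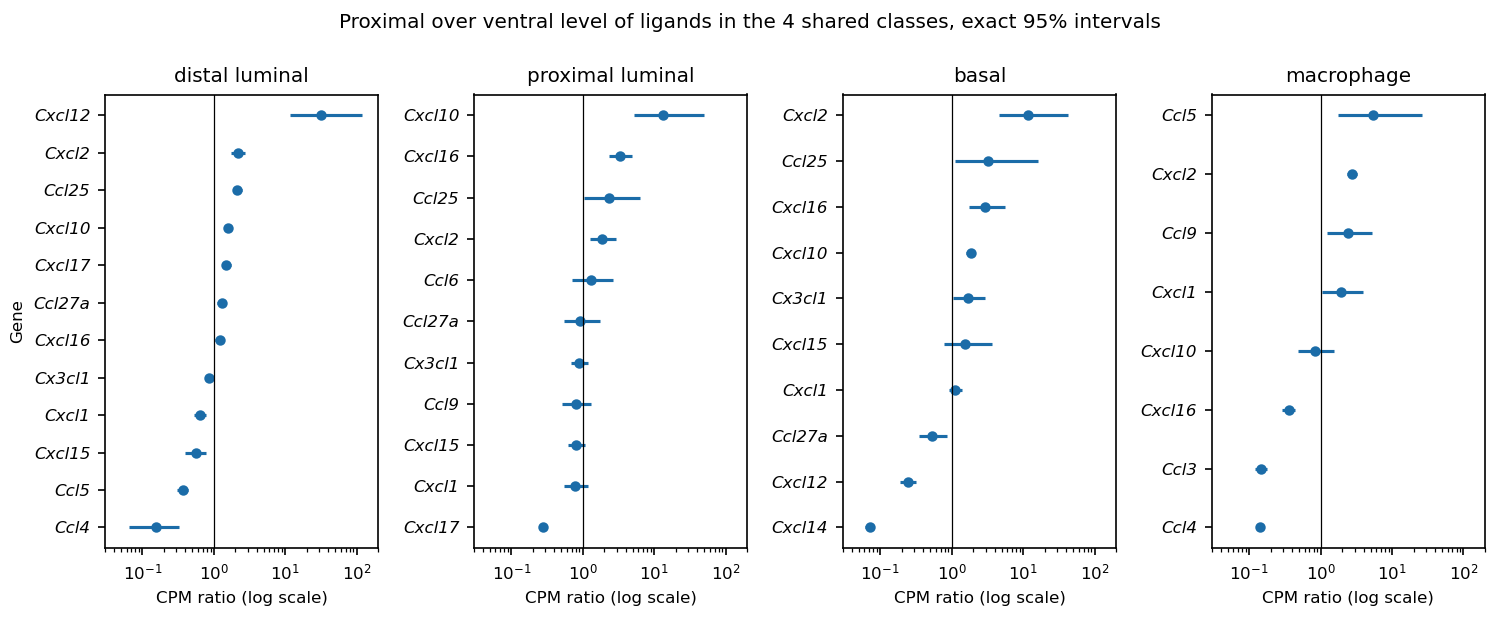
Ratio of proximal over ventral CPM (log axis) for each ligand with at least 50 UMIs in a class and UMIs in both libraries, in the 4 classes present in both, with exact 95% intervals conditional on the total count; the vertical line marks equal levels. Cxcl14 and Cxcl12 lie far left in basal-like cells, Cxcl17 in proximal luminal-like cells, and Ccl3 and Ccl4 in macrophage-like cells.

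Of 23 listed chemokine receptors, 13 stood at 50 UMIs or more over both libraries. Cxcr6, the receptor of Cxcl16, had 188 CPM (90 to 345) in ventral and 205 CPM (145 to 283) in proximal T or NK cell-like cells. Ccr7 had 702 CPM (612 to 801) and Ccr2 73.0 CPM (46.3 to 110) in dendritic cell-like cells. Ccr1, for Ccl6 and Ccl9, had 58.2 CPM (41.8 to 79.0) in proximal macrophage-like cells. Ccrl2, which presents chemerin rather than signalling to chemokines, had 619 CPM (476 to 790) in ventral and 76.7 (57.6 to 100.1) in proximal macrophage-like cells. Cxcr4 had 92.1 CPM (61.7 to 132) in dendritic cell-like, 44.6 (31.2 to 61.7) in endothelial-like, 21.8 in proximal luminal-like, 6.96 in basal-like and 1.66 in fibroblast-like cells of the proximal library. Over all 106 proximal immune-like cells Cxcr4 had 55.0 CPM (42.6 to 70.0). A single cell held 36.1% of its 36 endothelial-like UMIs. Cxcr5 was at most 3.18 CPM in any class of at least 20 cells, and Cxcr2, with 26 UMIs over both libraries, was among the 10 receptors under 50 UMIs. Of 6 neutrophil markers, S100a8, S100a9, Retnlg and Ly6g were at 0 in proximal macrophage-like cells and the other two, Csf3r and Mmp9, brought the sum to 21.3 CPM, and no cluster was named neutrophil-like.

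Atypical receptors, which bind ligands without the usual signalling, lay on structural cells. Ackr3, a scavenger of Cxcl12, had 74.6 CPM (69.9 to 79.6) in basal-like, 57.8 (51.6 to 64.5) in fibroblast-like and 35.9 (24.0 to 51.5) in endothelial-like cells of the proximal library. Ackr4, a scavenger of Ccl19, Ccl21a and Ccl25, had 148 CPM (121 to 178) in ventral and 24.0 CPM (21.3 to 26.8) in proximal basal-like cells, so 107 of its 123 ventral UMIs were basal-like. Ackr1, known from venules, had 54.5 CPM (39.6 to 73.1) in endothelial-like cells. Cx3cr1, the Cx3cl1 receptor, was highest in ventral macrophage-like cells at 251 CPM (164 to 368, 26 UMIs), where Gorasp1 and Xirp1 were at 0 and Csrnp1 at 77.3 CPM, and stood at 45.4 CPM in proximal ones. Whether its reads are those of the receptor alone was not tested. The annotated Cx3cr1 model (vM21, chromosome 9, 119901616 to 120069879, minus strand) spans Gorasp1, Csrnp1 and Xirp1 on the same strand. Cx3cr1 had 174 CPM (167 to 180) in the unnamed clusters and 131 CPM (122 to 141) in fibroblast-like cells, where Csrnp1 had 183 and 172 CPM. In proximal luminal-like and basal-like cells of the proximal library Cx3cr1 had 79.8 and 42.5 CPM and Csrnp1 203 and 249 CPM. Gorasp1 was at most 8.71 and Xirp1 at most 0.603 CPM in these groups.

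Finally, the genes with levels most like those of the 4 ligands with the most UMIs were listed, over 32 clusters of at least 20 cells (12 ventral and 20 proximal) and 13319 genes, by Pearson's r of log2(CPM + 10) centred within each library. Clusters of 1 library share their preparation and depth, so r describes only this set. For Cxcl10 they were Nfkbia (0.83), Tgm2 (0.83), Ifitm3 (0.82), Pltp (0.82) and Cxcl1 (0.82). Nfkbia encodes an inhibitor of NF-kappaB that is itself an NF-kappaB target. For Cxcl17 they included Naip5 (0.94), Barx2 (0.94), Slc34a2 (0.93) and Aspa (0.92). For Cxcl2 they were Mdfic (0.90), the macrophage marker Cd68 (0.88), Sgpl1 (0.87), Dgkd (0.87) and Zc3h12a (0.87), and for Cxcl16 they were Smox (0.90), Ptprj (0.89), Srxn1 (0.87), Wars2 (0.86) and Actr2 (0.86).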

How the data were processed

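The authors deposited UMI counts per gene and barcode, made with Cell Ranger 7.0.0, per the file headers and the submitters' processing notes, which also name mm10; the annotation is not given in the sources used here. The members, marker lists and response lists were chosen with earlier results of these data known. Members with at least 50 UMIs over both libraries were named, those with 10 to 49 UMIs by sum and main class. Barcodes numbered 2221 ventral (49356586 UMIs) and 4344 proximal (97817603 UMIs). Cells with at least 500 genes and at most 10% mitochondrial UMIs were kept; the filter removed 226 and 635. Scrublet marked 11 of 5704 cells (0.193%), which is too few to have worked.

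Counts were scaled to 10000 per cell and logged. Then 2000 variable genes without members or receptors, 30 components, 15 neighbours and Leiden clustering at resolution 1 (scanpy 1.11.5, Python 3.11.15) gave clusters, named from markers. A minimum of 10 cells per variable gene, a second clustering of immune cells, leaving out the highest cell of each class and the split of basal-like cells by fibroblast markers were chosen after seeing the data. UMIs were summed per class. Levels have exact Poisson, shares Clopper-Pearson and ratios exact conditional 95% intervals. Genes needed 50 UMIs and were called at 2-fold of CPM plus a pseudocount of 10. Shares of cells were also computed after thinning to 1000 UMIs. Of the 32285 genes listed, 200 drawn from those above a minimum level were changed 8-fold in simulated data. The simulated counts were Poisson draws from summed profiles, without the clumping of UMIs in single cells. The share recovered was 100% by the compartment rule in both libraries and, by the library ratio, 98.9% in basal-like and 100% in the other 3 classes. Of unchanged genes, 4.51% were called by the ventral compartment rule, 2.15% by the macrophage-like and 0.0196% by the basal-like library ratio, and 0% in the other steps. These shares do not describe calls near 2-fold, or calls of members that are low or lie in few cells. Alternatives covered the filters, clustering, naming, doublets, free RNA, the pseudocount and the highest cell of each member. Some genes that the naming rule takes are not reported here.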

Additional observations from a re-analysis of the deposited data

How the results depend on the processing

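No paired analysis was possible because each group has 1 library. Under the alternatives, 92 of 102 counts of members per compartment and 133 of 144 counts past 2-fold between libraries stayed within 1.5 times, whereas 32 shares of member UMIs moved beyond their intervals and 58 did not, and of the shares of cells with a UMI, under no or other thinning, 54 moved and 54 did not. Of the log2 ratios between compartments, 633 shifted by less than 0.5, 79 moved further and 2 of members with a call reversed, namely proximal Ccl21a (-0.0099 with each cell named by its markers) and ventral Xcl1 (-0.0031 with no minimum number of cells for variable genes). Ratios of 4 proximal members with no call fell below 0 in 7 cases, such as Ccl2 (-0.89) and Ccl7 (-0.41) without the highest cell in each class and compartment. The causes were not tested. Classes of few cells, such as the 11 ventral T or NK cell-like cells, limit precision.

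The count of proximal epithelial members was 2 instead of 1 at Leiden resolution 0.5, with 200 genes and 20% mitochondrial UMIs, with each cell named by its markers, with doublets removed at the expected rate and at a pseudocount of 1. The ventral epithelial count was 0 without the second immune clustering and 6 at a pseudocount of 1. At that pseudocount, 4 members were higher in proximal library basal-like cells, and 2 were higher and 2 lower in distal luminal-like cells. The distal luminal-like count of higher members was 0 with 200 genes and 20% mitochondrial UMIs, with no minimum number of cells and without the highest cell. The macrophage-like count of higher members was 2 by the mean over cells. Without the highest cell in each class and compartment, the proximal endothelial count was 1, the proximal and ventral epithelial counts 2 each and the distal luminal-like count of higher members 0. The proximal luminal-like count of higher members was 4 there, 4 with members allowed among variable genes and 4 without cells with over 5% Sbp and Spink1.

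The epithelial share of proximal member UMIs was 48.6% after subtracting 5% free RNA, 58.6% at Leiden resolution 0.5, 63.0% with 200 genes and 20% mitochondrial UMIs and 69.5% with each cell named by its markers. It was 44.6% with doublets removed at the expected rate, 56.3% with leading genes ranked among genes in 25% of cells, 56.2% with members allowed among variable genes, 43.9% with random seed 1, 53.0% with no minimum number of cells and 51.6% without the highest cell of each member. In that order of settings, the immune share was 13.6% after free RNA, 11.7% with 200 genes, 10.6% per cell, 12.6% without doublets and 11.5% without the highest cell. The stromal share was 19.96%, 18.97% and 18.4% under the first 3 of these, and the endothelial share 1.55% per cell and 3.13% without the highest cell. The ventral epithelial share was 75.6% after free RNA and without the second clustering, 74.7% at resolution 2 and 74.9% with no minimum number of cells. The ventral immune share was 24.4% under the first of these pairs and 13.8% with no minimum number of cells. Without the highest cell in each class and compartment, the proximal epithelial, immune and endothelial shares were 52.4%, 11.6% and 2.41%, and the ventral epithelial and immune shares 79.4% and 20.6%.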
